A study of Mus musculus with 4 samples.

Results

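MHC class I presentation genes were examined in newly made RNA of double positive (DP) thymocytes with and without Tox4. Members were chosen by gene name, by a rule that uses no measured value, but with earlier results of these data known. The rule gave 9 of the 24984 genes of the table. All 9 were among the 11625 genes at or above a mean of 1 CPM, a fragment count scaled to the total of its library. They were H2-K1 and H2-D1, the classical heavy chains, H2-Q7 and H2-T23, heavy chains of the nonclassical kind, B2m, the light chain, Tap1, Tap2 and Tapbp of the peptide loading machinery, and Nlrc5, the transactivator of class I genes.

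TTchem-seq labels RNA with 4-thiouridine for a short pulse, so that fragments over exons and introns report transcriptional output rather than mature mRNA. DP thymocytes carry CD4 and CD8 and are the stage at which T cells are selected in the thymus. The 2 wild-type (WT) libraries came from Tox4;F/F mice, in which exons 4 to 6 of Tox4 are floxed but intact, and the 2 conditional knockout (cKO) libraries from Tox4;F/F;Lck+ mice, which carry the same floxed allele and also Cre under the proximal Lck promoter, active from the double negative stage onwards. In the paper the floxed allele was made in eggs of C57BL/6 mice, while no strain is given for the Lck-Cre mice. All mice were aged 6 to 8 weeks, and neither genotype received a treatment besides the labelling.

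A class I molecule is a heavy chain bound to beta-2 microglobulin that shows a peptide from inside the cell to CD8 T cells. Peptides cut by the proteasome are carried into the endoplasmic reticulum by the TAP1 and TAP2 transporter, and tapasin, the product of Tapbp, holds the empty molecule at the transporter until it is loaded. NLRC5 is recruited to class I promoters through a module that holds an X2 element, bound by CREB and ATF factors, and a Y element, bound by NF-Y. DP thymocytes are known for little class I at the cell surface compared with mature T cells.

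Libraries held 38429786 to 48690591 fragments. Tox4, the deleted gene, was at 74.0 and 70.3 CPM in the WT libraries, against 59.3 and 57.2 CPM in the cKO libraries, with a DESeq2 adjusted p of 0.0453 for a log2 fold change of -0.31 (SE 0.0998); fragments over the intact exons and introns count here too. WT replicate 1 stood apart in genes of the sex chromosomes, with Xist at 172 CPM against at most 2.36 CPM in the other 3 libraries, and with 1.55 CPM over Ddx3y, Kdm5d, Uty and Eif2s3y against 267 to 310 CPM. The mice were described as gender-matched littermates. The genes of DP cells were abundant, with a summed level over the 10 markers of 4247 and 5192 CPM in the WT libraries, against 4677 and 4399 CPM in the cKO libraries. Of these markers Cd8a and Rag1 fell in cKO cells by the rule used below, with DESeq2 adjusted p of 1.21e-05 and 0.04995 and edgeR adjusted p of 0.114 and 0.287. Their log2 fold changes of -0.54 and -0.31 became -0.35 and -0.12 once WT replicate 2 was left out.

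Promoter windows of 250 bases before to 50 bases after the transcription start (RefSeq, GRCm38.p6) were on hand for 7 of the 9 members. They were searched on both strands for TGACG, the letters of X2, for CCAAT, the letters of Y, which read ATTGG on the other strand, for GGGGATTCC, the NF-kappaB site of class I enhancer A, and for GAAANNGAA, a short form of the interferon response element. The following stretches are shown because 4 members carried X2 followed by Y on the other strand, with their starts 24 or 25 bases apart; capitals mark the matches to these letters.
B2m, chr2:122147534-122147668, + strand: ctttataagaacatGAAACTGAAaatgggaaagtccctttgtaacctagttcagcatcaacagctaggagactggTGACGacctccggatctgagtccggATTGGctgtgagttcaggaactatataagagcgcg
H2-K1, chr17:34000329-34000463, - strand: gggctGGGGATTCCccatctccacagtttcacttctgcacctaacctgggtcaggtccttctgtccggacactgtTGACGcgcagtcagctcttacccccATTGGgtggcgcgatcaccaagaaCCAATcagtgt
H2-D1, chr17:35262918-35263052, + strand: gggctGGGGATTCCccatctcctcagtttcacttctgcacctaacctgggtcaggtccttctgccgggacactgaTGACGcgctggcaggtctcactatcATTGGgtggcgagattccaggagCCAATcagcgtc
H2-Q7, chr17:35439016-35439149, + strand: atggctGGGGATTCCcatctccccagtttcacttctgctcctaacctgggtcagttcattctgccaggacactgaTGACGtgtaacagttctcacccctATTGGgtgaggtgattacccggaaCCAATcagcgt

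The starts of these X2 and Y letters lay 25 bases apart in B2m, H2-K1 and H2-D1 and 24 bases apart in H2-Q7. This spacing was chosen after the sequences were seen, and it occurred in 26 of all 32851 windows (0.0791%), which belonged to 22 genes. The letters of X2 were in 20.8% and those of Y in 37.4% of all windows. GGGGATTCC occurred in H2-K1, H2-D1 and H2-Q7 and in 0.25% of all windows, and in these members it did not overlap the other matches. GAAANNGAA occurred in B2m and H2-T23 and in 8.56% of all windows. Other spellings of this element were not searched, so its absence from H2-K1, H2-D1, H2-Q7, Tap1 or Tapbp cannot be read from this. Tap1, which is transcribed away from the immunoproteasome gene Psmb9, held the letters of X2 and Y without this spacing, and Tapbp and H2-T23 held those of Y but not those of X2. A match to letters is a description, and binding of a factor was not measured here.

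Compared per length of gene, most members were transcribed at a high level. The mean over the 4 libraries was 12.9 CPM per kb for B2m, 9.92 for H2-K1, 8.50 for H2-D1, 7.16 for H2-T23, 6.99 for Tap2, 5.90 for Tapbp, 4.69 for Tap1, 1.25 for H2-Q7 and 0.763 for Nlrc5, beside a median of 1.46 CPM per kb over all genes with a mean of at least 1 CPM. Their ranks ran from the percentile 95.8 for B2m to 33.2 for Nlrc5, with a median of 90.9. The ranges over libraries of neighbours in this order overlapped from B2m down to Tapbp, whereas Tapbp, Tap1, H2-Q7 and Nlrc5 did not overlap with one another. Within each of the 4 libraries the level of B2m was above that of H2-K1, that of H2-K1 above H2-D1 and that of H2-D1 above H2-T23, while H2-T23 and Tap2, and Tap2 and Tapbp, changed places between libraries. The place of H2-D1 depends on the H2-L row described below, since with both rows summed it was at the percentile 96.0 and B2m at 95.7. Nlrc5 is the longest of the members, with a span of 54510 bp, and the percentile of H2-Q7 was 67.3 once the fragments of the H2-Q9 row were added to it. The high ranks depend on division by the length of the whole gene: the median percentile was 61.7 for CPM not divided by length and 72.3 per kb of exons.

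**Figure D1:**
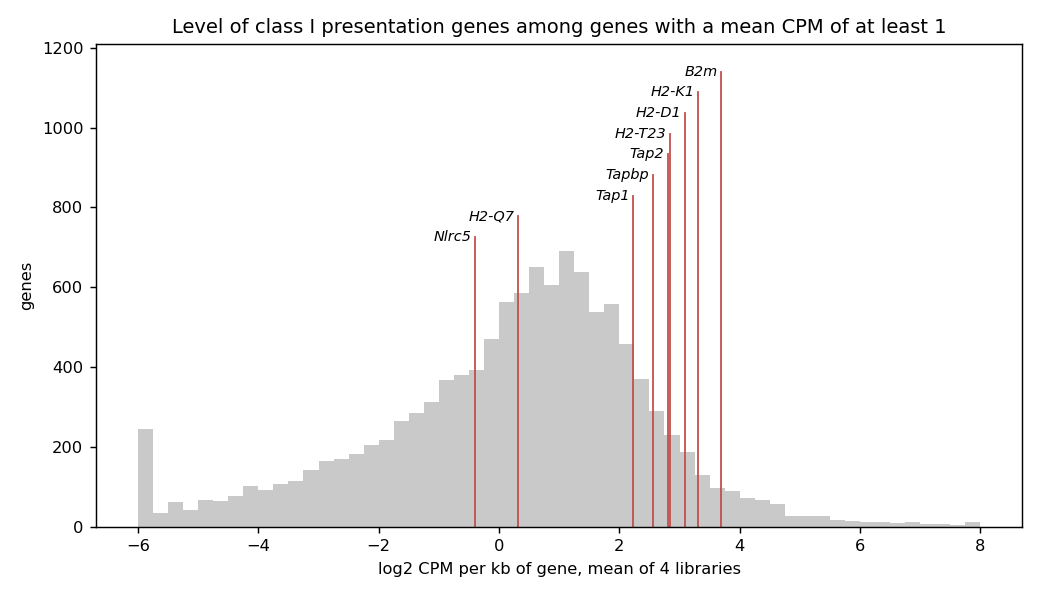
Histogram of log2 CPM per kb of gene (mean of 4 libraries) for the 11625 genes whose mean reached 1 CPM; the first and last bars also hold genes beyond the axis. Red lines mark the 9 members, of which 7 lie above the median of 1.46 CPM per kb and H2-Q7 and Nlrc5 below it.

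Whether loss of Tox4 changed class I transcription was asked by comparing cKO with WT libraries. A gene was called at an adjusted p under 0.05 by the DESeq2 Wald test, a change by a factor of 1.2 or more and a mean level of 1 CPM or more. By this rule 1 of the 9 members, H2-D1, fell in cKO cells and 0 rose, beside 3.71% of all genes called, 1.57% down and 2.14% up. The call of H2-D1 did not hold with edgeR, by which 0 members were called beside 0.533% of all genes, while 3 members had an unadjusted p under 0.05 by edgeR, beside 15.3% of all genes, and 2 by DESeq2, beside 13.5%. Of the 9 members 4 had a higher and 5 a lower mean log2 level in cKO cells, with a median log2 fold change of -0.07 beside 0.00 over all genes. This median was -0.0015 without WT replicate 1, -0.14 without WT replicate 2 or without cKO replicate 1, and -0.08 without cKO replicate 2. The cKO libraries lay outside the WT range for 7 members, below it for H2-K1, H2-D1, Tapbp and H2-T23 and above it for Tap1, Tap2 and H2-Q7. With 2 libraries a group such a gap is common: 48.9% of all genes had one, 24% with cKO below and 24.9% with cKO above.

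**Figure D2:**
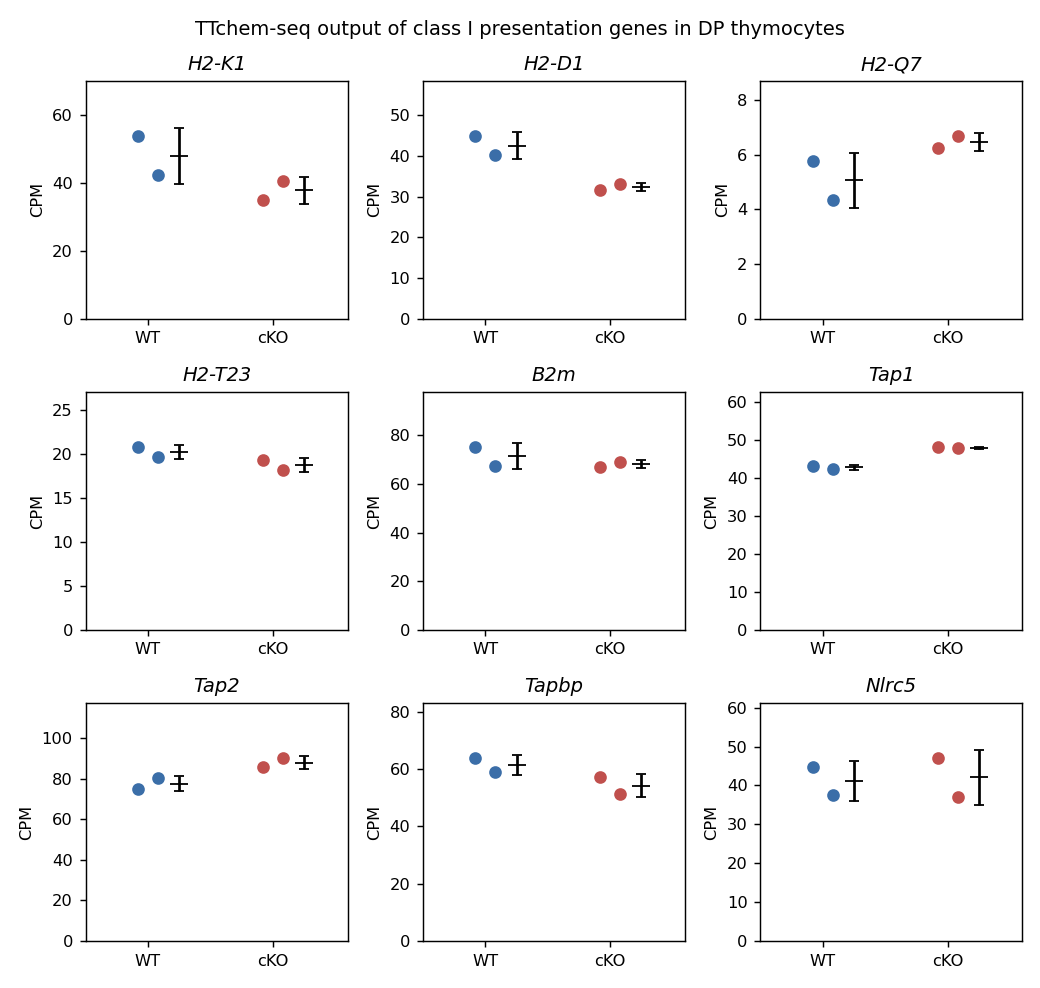
CPM of each member in the 2 WT (blue) and 2 cKO (red) libraries, in replicate order, with the mean and SD of each genotype in black; each panel has its own axis from 0. The points of B2m and Nlrc5 overlap between genotypes, and those of the other 7 members do not.

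With all 4 libraries the classical heavy chains had the most negative log2 fold changes of the members. Without cKO replicate 1, Tapbp (-0.25) was more negative than H2-K1 (-0.23). H2-D1 (chr17:35263094-35267497, GRCm38, + strand) was at 44.9 and 40.1 CPM in the WT libraries, against 31.7 and 33.0 CPM in the cKO libraries. Both cKO libraries were below both WT libraries, and the means were 42.5 ± 3.40 and 32.3 ± 0.915 CPM (SD, n = 2 each). The log2 fold change was -0.40 (SE 0.124, 95% interval -0.64 to -0.15, DESeq2 adjusted p = 0.0354), a fold of 0.760. By edgeR the adjusted p was 0.159 and by limma voom 0.144. With 1 library left out at a time the log2 fold change was -0.47 to -0.32 with an adjusted p of 0.116 to 0.759, so the call rested on all 4 libraries.

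The row of H2-D1 shares most of its span with another row. H2-L, annotated on the same strand inside H2-D1, covers 81.9% of it, and the C57BL/6 strain has no separate L gene. With both rows summed, the locus stood at 71.5 and 64.7 CPM in the WT libraries, against 51.5 and 52.5 CPM in the cKO libraries. For the sum DESeq2 gave an adjusted p of 0.00887 and a log2 fold change of -0.39 (SE 0.106), while the row of H2-L alone had -0.38 (adjusted p = 0.123). How fragments common to both rows were divided between them is not known.

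H2-K1 (chr17:33996012-34000347, - strand), the other classical heavy chain, was at 54.0 and 42.3 CPM in the WT libraries, against 35.0 and 40.7 CPM in the cKO libraries. The cKO libraries were the lower ones, but WT replicate 2 and cKO replicate 2 lay closer to each other than the WT libraries did. The log2 fold change was -0.35 (SE 0.141, 95% interval -0.62 to -0.07) and did not pass the test (DESeq2 adjusted p = 0.173, unadjusted p = 0.0139). Without WT replicate 1, the library that stood apart, it was -0.17, and without WT replicate 2 it was -0.51 with an adjusted p of 0.0695. Of the 50-base words of H2-K1, 15.1% also occur in another class I gene, most often H2-Q10, and of those of H2-D1 13.9% do, most often in H2-K1.

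The heavy chains of the nonclassical kind did not pass the test. H2-Q7 (chr17:35439155-35443773, + strand), which encodes a Qa-2 antigen, was at 5.77 and 4.36 CPM in the WT libraries, against 6.25 and 6.70 CPM in the cKO libraries. These are the lowest CPM of the members before division by length, and both cKO libraries were above both WT libraries. The log2 fold change was 0.35 (SE 0.274, 95% interval -0.18 to 0.89, DESeq2 adjusted p = 0.638), and leaving out WT replicate 1 or WT replicate 2 moved it to 0.56 or 0.17. The H2-Q9 row covers 99.7% of H2-Q7 with nearly the same counts, and 44.8% of the 50-base words of H2-Q7 occur in another class I gene, 37.9% in H2-Q6. The fragments thus cannot be assigned to H2-Q7 alone, and the summed rows of H2-Q7 and H2-Q9 had a log2 fold change of 0.35 (SE 0.208, adjusted p = 0.476).

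H2-T23 (chr17:36029977-36032701, - strand) encodes Qa-1, which presents signal peptides of other class I chains to NKG2 receptors. It was at 20.8 and 19.7 CPM in the WT libraries, against 19.3 and 18.2 CPM in the cKO libraries. The cKO libraries were below the WT libraries by less than 1 CPM at the nearest points, and the log2 fold change was -0.11 (SE 0.153, 95% interval -0.41 to 0.19, DESeq2 adjusted p = 0.835). Of its 50-base words 25.7% occur in another class I gene, 16.6% in H2-T-ps. It also overlaps A930015D03Rik on the other strand, which had a mean of 1.67 CPM per kb.

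B2m (chr2:122147687-122153082, + strand), needed by every class I heavy chain at the surface, was at 75.2 and 67.6 CPM in the WT libraries, against 66.9 and 69.2 CPM in the cKO libraries. The genotypes overlapped, with cKO replicate 2 above WT replicate 2. Its log2 fold change of -0.07 (SE 0.103) had a 95% interval of -0.27 to 0.13 and a DESeq2 adjusted p of 0.848. It was -0.0015 without WT replicate 1, -0.14 without WT replicate 2 and -0.039 without cKO replicate 1. None of its 50-base words occur in a class I gene, and Patl2, which overlaps it on the other strand, had 0.0152 CPM per kb.

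The peptide transporter genes were slightly higher in cKO cells, without passing the test. Tap1 (chr17:34187556-34197225, + strand) was at 43.2 and 42.4 CPM in the WT libraries, against 48.1 and 47.8 CPM in the cKO libraries. Both replicate pairs were closely spaced and apart from each other, and the log2 fold change was 0.16 (SE 0.110, 95% interval -0.05 to 0.38, DESeq2 adjusted p = 0.563). Tap2 (chr17:34204479-34216321, + strand), the other subunit, was at 74.9 and 80.3 CPM in the WT libraries, against 85.7 and 90.3 CPM in the cKO libraries. Its log2 fold change was 0.18 (SE 0.0972, 95% interval -0.01 to 0.37, DESeq2 adjusted p = 0.408). With each library left out in turn, the log2 fold change stayed between 0.15 and 0.17 for Tap1 and between 0.12 and 0.24 for Tap2.

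Tapbp (chr17:33919478-33929290, + strand), the tapasin gene, was at 63.9 and 59.1 CPM in the WT libraries, against 57.2 and 51.4 CPM in the cKO libraries. WT replicate 2 and cKO replicate 1 nearly met, and the log2 fold change was -0.18 (SE 0.109, 95% interval -0.39 to 0.03, DESeq2 adjusted p = 0.487). Without cKO replicate 2 it was -0.11. Tapbp and the transporter genes lie on the same chromosome and the signs of their log2 fold changes were opposite, but none of them passed the test and the difference between them was not tested.

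Nlrc5 (chr8:94472763-94527272, + strand) was at 44.7 and 37.5 CPM in the WT libraries, against 47.0 and 37.1 CPM in the cKO libraries. The replicates of a genotype differed more than the genotypes did, with replicate 1 the higher library in both. The log2 fold change was 0.03 (SE 0.142, 95% interval -0.25 to 0.31, DESeq2 adjusted p = 0.964), and its sign turned without WT replicate 2 (-0.086) and without cKO replicate 1 (-0.14). Genes with the nearest profile over the 4 libraries, by Euclidean distance of centred log2 CPM, were Inpp4b, Tnfaip1 and Gm4759 at distances of 0.0449, 0.0458 and 0.0477. In all, 25 genes were nearer than 0.1.

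**Figure D3:**
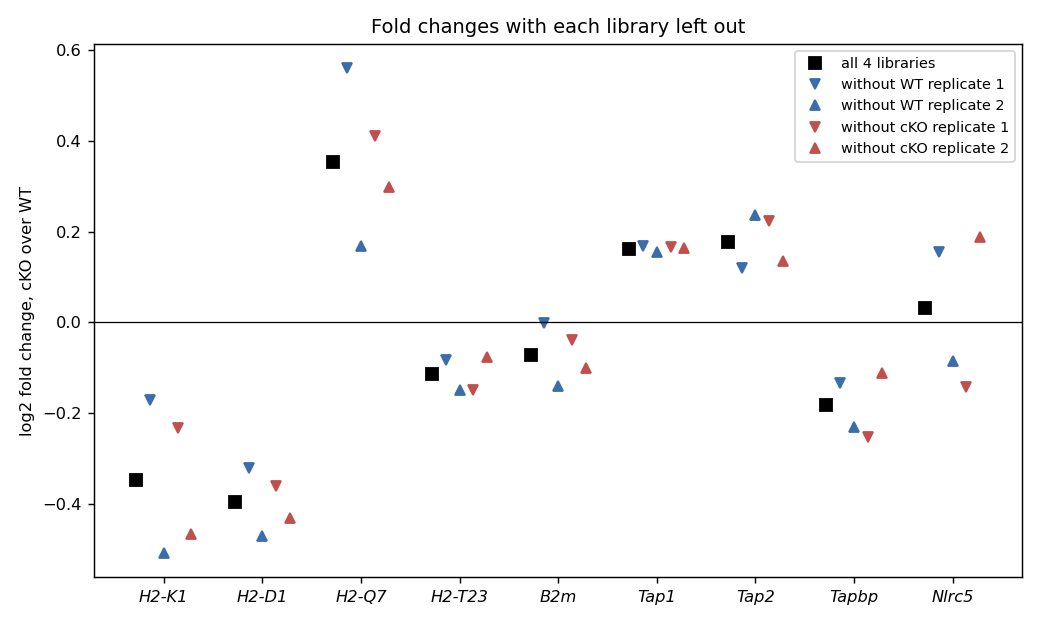
Log2 fold change (cKO over WT) of each member by DESeq2 with all 4 libraries (black squares) and with 1 library left out (triangles). H2-K1, H2-D1, Tapbp, H2-T23 and B2m stayed below 0 and Tap1, Tap2 and H2-Q7 above it, while Nlrc5 lay on both sides; H2-D1 was called only with all 4 libraries.

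Replicates differed within a genotype as well. The log2 CPM of 8 members was lower in WT replicate 2 than in WT replicate 1, Tap2 being the exception, with a largest difference of 0.41, and 4 members were lower in cKO replicate 2 than in cKO replicate 1, with a largest difference of 0.34.

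Other genes of the pathway were taken from a list of 20 genes for peptide cutting, trimming, loading and folding, all of them with a mean of at least 1 CPM. Of these 1 rose and 1 fell, 9 were higher and 11 lower in cKO cells, and the median log2 fold change was -0.06. Tapbpl (chr6:125224212-125231860), which encodes TAPBPR, a tapasin relative that exchanges peptides on class I molecules, was at 28.5 and 29.9 CPM in the WT libraries, against 45.0 and 39.6 CPM in the cKO libraries. The cKO libraries were clearly above the WT libraries, and the log2 fold change of 0.53 (SE 0.127) had a DESeq2 adjusted p of 0.00181. Calr (chr8:84842088-84846931), which encodes calreticulin, the chaperone of the peptide loading complex, was at 80.3 and 76.9 CPM in the WT libraries, against 62.5 and 63.2 CPM in the cKO libraries. Its log2 fold change was -0.33 (SE 0.0969, DESeq2 adjusted p = 0.0239). By edgeR the adjusted p of both genes was 0.105, and with 1 library left out at a time 1 gene of the list was called without WT replicate 2 and 0 in the other 3 fits.

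Of the remaining list the genes with the highest mean CPM, not divided by gene length, were Uggt1, the glucosyltransferase that checks glycoprotein folding, and Lnpep, an aminopeptidase of cross-presentation. Uggt1 was at 269 and 244 CPM in the WT libraries, against 253 and 276 CPM in the cKO libraries, with overlap between genotypes. Lnpep was at 217 and 209 CPM in the WT libraries, against 229 and 243 CPM in the cKO libraries, with a log2 fold change of 0.14 (DESeq2 adjusted p = 0.415) that was 0.09 without cKO replicate 2. The immunoproteasome subunits Psmb8 and Psmb9, whose genes neighbour Tap1 and Tap2, had log2 fold changes of -0.06 (adjusted p = 0.912) and -0.05 (adjusted p = 0.964), and both signs turned without WT replicate 2 and without cKO replicate 2.

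**Figure D4:**
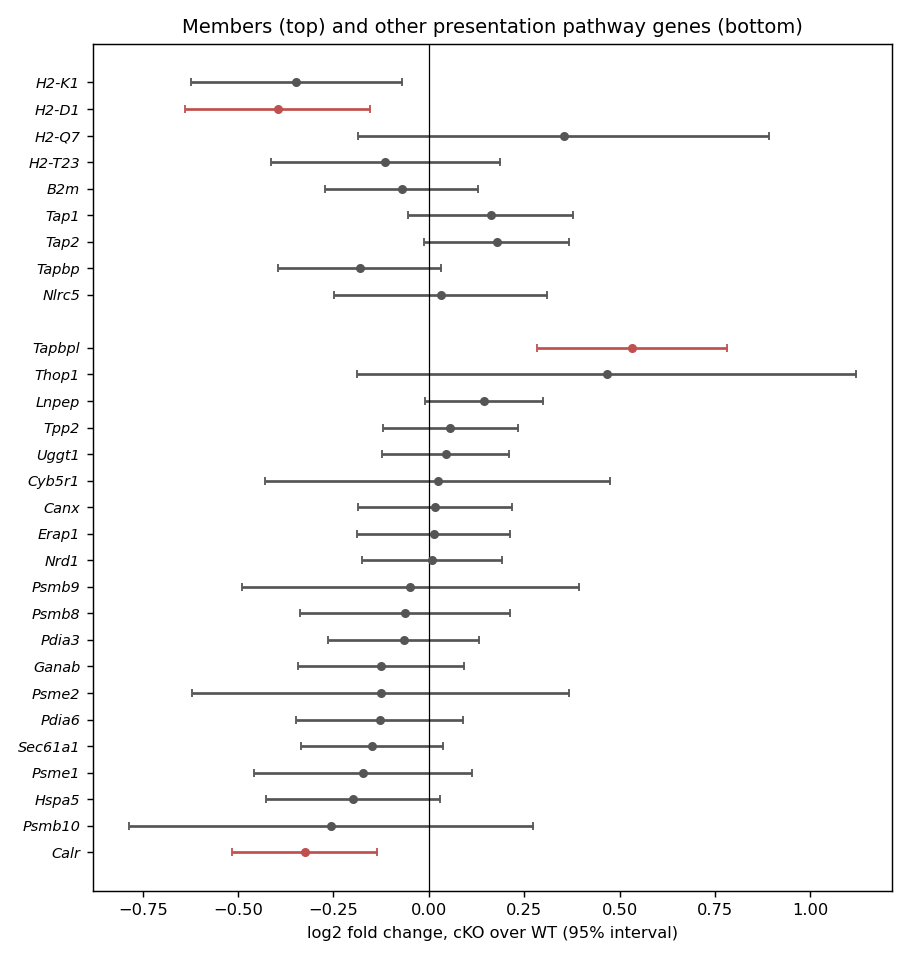
Log2 fold change (cKO over WT, DESeq2) with its 95% interval for the 9 members (top) and the 20 other pathway genes (bottom), called genes in red. H2-D1 and Calr lie below 0 and Tapbpl above it; among the genes not called only the interval of H2-K1 leaves out 0.

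Of 29 other class I and class I-like genes 17 had a mean of at least 1 CPM, 14 had an adjusted p and 0 were called, with a median log2 fold change of -0.03. Among them Mr1, which presents vitamin metabolites to MAIT cells, and H2-Q4 had the highest mean CPM, not divided by gene length. H2-Q4 was at 47.6 and 39.3 CPM in the WT libraries, against 31.1 and 37.7 CPM in the cKO libraries, both of them below the WT libraries. Its log2 fold change of -0.34 was close in size to that of H2-K1 and did not pass the test (DESeq2 adjusted p = 0.195). It was -0.20 without WT replicate 1 and also without cKO replicate 1. Mr1 was at 33.6 and 44.5 CPM in the WT libraries, against 40.9 and 40.7 CPM in the cKO libraries, within the WT range.

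Of 24 regulators of class I transcription 23 had a mean of at least 1 CPM, 2 rose and 0 fell. Ifngr1 (chr10:19591949-19610227), a chain of the interferon-gamma receptor, was at 254 and 283 CPM in the WT libraries, against 382 and 398 CPM in the cKO libraries. This difference of 0.54 (log2, SE 0.0826) passed both tests, with an adjusted p of 3.55e-08 by DESeq2 and of 0.0451 by edgeR. Ezh2 (chr6:47530274-47595030), the H3K27 methyltransferase of Polycomb complex PRC2, was at 143 and 153 CPM in the WT libraries, against 193 and 188 CPM in the cKO libraries. Its log2 fold change was 0.36 (SE 0.0825, DESeq2 adjusted p = 9.83e-04), with an edgeR adjusted p of 0.0950. Jak1, a kinase of interferon receptors, and Irf2, a factor that binds interferon response elements, had the highest mean CPM of this list, again not divided by gene length, and had log2 fold changes of 0.07 (adjusted p = 0.802) and -0.10 (adjusted p = 0.641). Without WT replicate 2 the value of Jak1 was -0.02, and without cKO replicate 2 that of Irf2 was -0.02.

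Interferon response genes are often read together with class I genes. Of 13 such genes 10 had a mean of at least 1 CPM, 9 had an adjusted p and 0 were called by DESeq2, with a median log2 fold change of -0.10. Their summed level was 325 and 306 CPM in the WT libraries, against 302 and 287 CPM in the cKO libraries.

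Class I genes are also transcribed by other thymic cells, so the levels of their markers are given; the part of such cells in the class I values was not tested. In bulk samples fewer cells of a type and less RNA per cell cannot be told apart. The 10 markers of myeloid and dendritic cells summed to 34.5 and 40.4 CPM in the WT libraries, against 25.9 and 30.4 CPM in the cKO libraries, and 1 of them, Cd74, the invariant chain of class II molecules, fell (log2 fold change -0.75, DESeq2 adjusted p = 0.0331, edgeR adjusted p = 0.216). The lower sum lay in the 3 class II genes of this list, Cd74, H2-Aa and H2-Ab1, at 21.7 and 30.2 CPM in the WT libraries against 12.8 and 18.5 CPM in the cKO libraries. The other 7 markers summed to 12.8 and 10.2 CPM in the WT libraries against 13.1 and 11.9 CPM in the cKO libraries, ranges that overlapped. Most of this sum was Cd68, at 7.67 and 5.50 CPM in the WT libraries against 9.21 and 7.52 CPM in the cKO libraries. Lyz2 was lower in both cKO libraries, at 0.312 and 0.679 CPM against 1.34 and 1.21 CPM in WT, as was Csf1r, at 0.156 and 0.327 CPM against 0.892 and 0.534 CPM, and neither had an adjusted p. The 6 B cell markers summed to 13.8 and 12.7 CPM in the WT libraries, against 14.3 and 12.2 CPM in the cKO libraries; 3 of them reached a mean of 1 CPM, 2 had an adjusted p, and 0 were called by DESeq2. Of 7 thymic epithelial markers 1 reached a mean of 1 CPM, and Psmb11, the subunit that defines cortical epithelium, had 0 counts in every library. The 6 erythroid markers summed to at most 0.729 CPM.

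Mature single positive thymocytes hold more class I than DP cells, and purification with CD4 beads, as the study describes for DP cells in other assays, can retain those with CD4. The 12 markers of these cells summed to 724 and 728 CPM in the WT libraries, against 808 and 690 CPM in the cKO libraries. Among them Bcl2 and Il7r rose and Ccr7 fell by DESeq2, with edgeR adjusted p of 0.0641, 0.105 and 0.146. Of the 5 markers of double negative cells 4 had a mean of at least 1 CPM, and 1 of them, Il7r again, rose.

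Of the 9 members 7 lie in an interval of chromosome 17 from Tapbp to H2-T23 (chr17:33919478-36032701). It held 151 genes, 100 of them with a mean of at least 1 CPM, of which 40 were higher and 60 lower in cKO cells with a median log2 fold change of -0.07. In this interval 3 genes (3.0%) were called, beside 3.71% of all genes. H2-DMa, the peptide exchange factor of class II molecules, rose (log2 fold change 0.43, adjusted p = 0.0296 by DESeq2 and 0.134 by edgeR), and Ltb, which encodes lymphotoxin beta, fell (log2 fold change -0.44, adjusted p = 0.00103 by DESeq2 and 0.103 by edgeR), as did H2-D1.

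**Figure D5:**
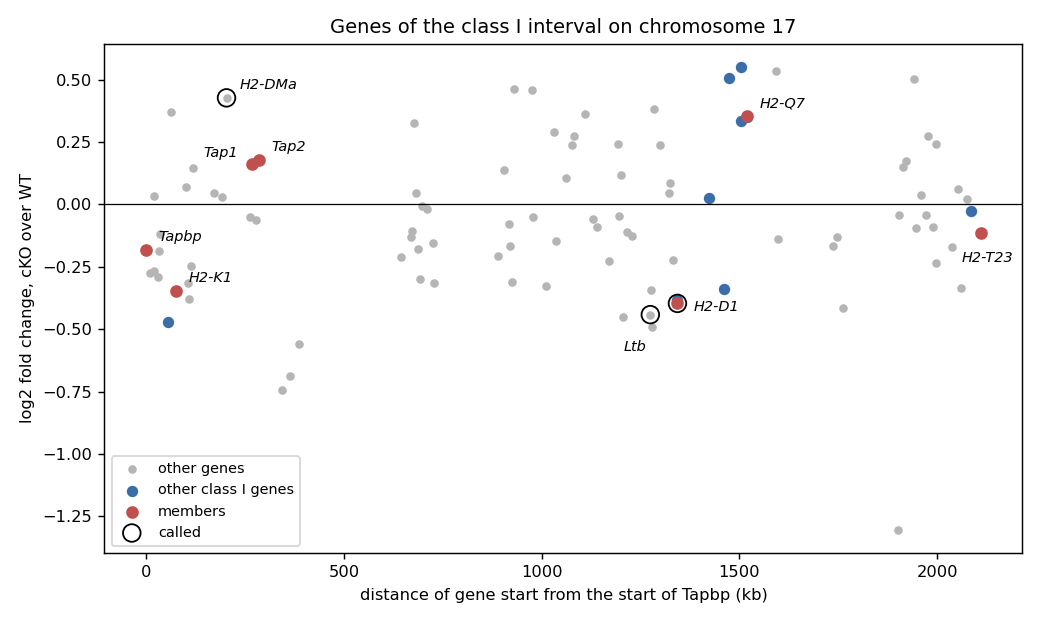
Log2 fold change (cKO over WT) of the 100 genes of the chromosome 17 interval by the distance of their start from that of Tapbp in kb; members are red, other class I genes blue, and black circles mark the 3 called genes. Members on both sides of 0 lie among other genes with changes of similar size.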

How the data were processed

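TTchem-seq was measured in 2 WT and 2 cKO libraries of DP thymocytes, grouped by their titles. The submitters' notes name fastp 0.13.1, STAR 2.7.9a and featureCounts 1.6.1 with build mm10 (GRCm38). The authors deposited expected counts of fragments per gene over the whole gene, introns included. Of the values 8.61% were fractional, and how fractions arose is not given in the sources used here. Yeast spike-in RNA was not used for scaling. The members, the lists and the tests were chosen with earlier results of these data known. Named genes are the members, Tox4, every called gene and the 2 genes with the highest mean CPM of the pathway, class I and regulator lists, the called genes of the chromosome 17 interval and the 3 genes nearest to Nlrc5. Marker genes, Psmb8 and Psmb9 were named after their values were seen.

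From the deposited expected counts, rounded to whole numbers, DESeq2 1.42.0 (R 4.3.3) fitted the genotype over all genes by the Wald test with default size factors, following the study, with Benjamini-Hochberg adjustment over the genes left by DESeq2's default independent filtering, so that some genes with a mean of at least 1 CPM have no adjusted p. CPM were computed from library totals, and CPM per kb from the deposited gene length. Alternatives were edgeR 4.0.16 and limma 3.58.1, other size factors, filters, rounding, a replicate block, rows of a shared locus summed (added after seeing the data) and each library left out. Fits were tested on simulated counts. Exon lengths came from GENCODE M21, and promoter windows from RefSeq. The labels name separate mice only by replicate number, so p-values measure the spread between these libraries, and fragments carry no molecular identifiers. Chi-square per degree of freedom between replicates, against counting error alone, was 40.7 (WT) and 30.7 (cKO). The replicates of a genotype were thus not the same library sequenced again, but this value cannot tell separate mice from separate preparations of the same cells.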

Additional observations from a re-analysis of the deposited data

How the results depend on the processing

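The call of H2-D1, the only member called, was lost in several settings. The number of members called was 1 by DESeq2 and 0 with edgeR, limma voom, independent filtering off, and each of the 4 fits with 1 library left out (0 to 0), in which the lone library of a genotype is assumed to vary like the others. The adjusted p of H2-D1 was 0.0641 with independent filtering off. With other size factors, filters or rounding and with the rows of a shared locus summed the number stayed at 1. The 2 calls of the pathway list fell to 0 with edgeR and limma voom and to 0 to 1 with a library left out. The sign of the log2 fold change of Nlrc5 turned without WT replicate 2 (-0.086) and without cKO replicate 1 (-0.14), its values with 1 library left out running from -0.14 to 0.19. No other member turned in any setting run. Of the 13 called genes named that are no members, edgeR called Ifngr1 only. With 1 library left out at a time, Ifngr1, Cd8a and Bcl2 were called in all 4 fits, Ccr7 in 2 (without WT replicate 2 and without cKO replicate 1), Tapbpl and Ezh2 without WT replicate 2 only, Rag1 and Ltb without WT replicate 1 only, and Tox4, Calr, Il7r, Cd74 and H2-DMa in 0. The median percentile of the members' level of 90.9 moved to 61.7 without division by length and to 72.3 per kb of exons. Over all genes 249 were called up and 182 down by DESeq2, 50 and 12 by edgeR, 44 and 10 by limma voom, and 89 to 446 in all with a library left out (89 without cKO replicate 2, 126 without cKO replicate 1, 184 without WT replicate 1).

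Deviations of same-numbered libraries from their genotype means correlated at -0.03 over 11625 genes, so no shared effect of the replicate number was seen. With 2 libraries a genotype this is a single contrast, and it cannot tell whether the libraries were prepared in pairs. With the replicate number as a block, 0 members and 0 genes of the pathway list were called by DESeq2 and by edgeR, the adjusted p of H2-D1 being 0.308 and 0.293. Over all genes the block left 121 up and 72 down by DESeq2 and 0 up and 1 down by edgeR. The causes of these differences were not tested, and 2 libraries a genotype limit the precision of every value.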
